A study of Homo sapiens with 12 samples.

Results

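The S-phase DNA replication genes were 41 named genes whose transcripts are used to mark cells that copy their DNA. They were taken by name from the 3 count matrices, 1 for each cell line, out of 33514 gene symbols on 33538 rows. All 41 were present, each had at least 3258 unique molecular identifiers (UMIs, which count captured RNA molecules) in all, and all 41 passed the filter on low counts that left 17897 genes for testing. Single-cell RNA sequencing was carried out on SCC1 (UM-SCC-1), SCC6 (UM-SCC-6) and SCC25, established lines of head and neck squamous cell carcinoma, after 5 days of culture with cetuximab given daily at 100 nM, which is an antibody against the receptor EGFR that keeps growth factors from binding it, or with phosphate-buffered saline (PBS). Each line and treatment had 2 samples, which makes 12 samples in 6 groups. The labels name no transgene or deletion in either group, and PBS was given for the same 5 days. No source used here says whether the 2 samples of a group came from separate cultures, so that p-values measure the spread between these samples, which may be technical. A line is also a single model of its tumour, and the 3 lines are not replicates of one another.

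DNA is copied once in each cell cycle. In G1 the MCM helicase is loaded on origins of replication, and at the start of S phase it is switched on by CDC45 and the GINS complex, after which primase and the polymerases extend new strands behind it, held on DNA by the clamp PCNA. The E2F transcription factors, released when cyclin-dependent kinases act on the retinoblastoma protein, raise most of the genes involved before or at the start of S phase, and in squamous cells EGFR signalling is one of the inputs that lead there. Their transcripts are therefore used together to place a cell in S phase.

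The samples held 961 to 2854 cells and 57057402 to 112170073 UMIs, with a median of 24078.5 to 54864 UMIs per cell. The lowest median belonged to SCC6 cetuximab replicate 1. Samples shared 1 to 13 cell barcodes with any other sample, at most 10 within a group. The summed level of 5 squamous epithelial markers (KRT5, KRT14, KRT17, TP63, SFN) was 782 to 13226 CPM over the samples. CPM are UMIs of a gene scaled to the UMI total of the sample multiplied by its TMM normalization factor. KRT5 and KRT14, however, reached as low as 1.16 and 0.424 CPM, in SCC6. The blood markers PTPRC, CD3E and HBB stood at 0.112 CPM or less in every sample, while CD68, the macrophage marker of that list, ran from 3.3 to 205 CPM. Since 3′ counts depend on each gene's own capture, levels are compared here between samples for a gene, not between genes.

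Promoter sequence was examined because these genes are known as E2F targets. RefSeq windows on GRCh38.p14, from 250 bases before to 50 bases after a start site, were found for 32 of the 41 members. An E2F word (TTTCCCGC, TTTGGCGC, TTTCGCGC or TTTGCCGC, on either strand) was present in a window of 19 of these 32 genes (59.4%), against 3.99% of the 27305 genes with a window. CCAAT, the box bound by NF-Y, was present in 24 of 32 (75%) against 39.7% of all genes, and in 12 of 14 genes of G2 and mitosis (85.7%). Of 36 other replication genes with a window, 44.4% held an E2F word and 55.6% held CCAAT. The cell cycle homology region of late cell cycle genes, TTTGAA, was present in 4 of 32 (12.5%) against 18.2% of all genes, while it was present in 9 of 14 genes of G2 and mitosis. A match is a run of letters and not a measured site, and no match says only that these words are not in the window.

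Of the 10 members given below in every sample by rule, PRIM1, USP1, BLM and NASP had a window without an E2F word. MCM4, POLD3, DSCC1, WDR76 and E2F8 had no window. Whether such words go with the change under cetuximab was not tested. CDCA7 had an E2F word in its window (chr2:173354622-173354921, plus strand). The word begins 65 bases before the start site, shown in capitals on the strand of the gene.
CDCA7: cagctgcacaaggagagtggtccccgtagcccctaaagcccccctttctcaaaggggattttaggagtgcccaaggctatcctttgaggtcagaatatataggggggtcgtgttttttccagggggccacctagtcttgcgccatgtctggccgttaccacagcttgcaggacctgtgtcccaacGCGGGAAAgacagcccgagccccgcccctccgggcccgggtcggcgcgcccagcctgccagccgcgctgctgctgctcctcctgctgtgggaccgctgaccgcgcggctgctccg
Windows of TIPIN (chr15:66356636-66356935, minus strand), MCM6 (chr2:135876394-135876693, minus strand) and HELLS (chr10:94545538-94545837, plus strand) are shown as well and were chosen after their values were seen, TIPIN for its change in SCC6, MCM6 and HELLS for having more than 1 stretch of E2F words. In TIPIN and MCM6 a word on one strand overlaps a word on the other.
TIPIN: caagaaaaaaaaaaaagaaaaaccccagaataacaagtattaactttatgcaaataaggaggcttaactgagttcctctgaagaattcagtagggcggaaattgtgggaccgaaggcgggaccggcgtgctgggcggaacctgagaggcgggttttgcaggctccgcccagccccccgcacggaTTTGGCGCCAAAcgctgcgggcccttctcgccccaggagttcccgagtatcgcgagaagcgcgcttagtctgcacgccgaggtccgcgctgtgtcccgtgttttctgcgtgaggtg
MCM6: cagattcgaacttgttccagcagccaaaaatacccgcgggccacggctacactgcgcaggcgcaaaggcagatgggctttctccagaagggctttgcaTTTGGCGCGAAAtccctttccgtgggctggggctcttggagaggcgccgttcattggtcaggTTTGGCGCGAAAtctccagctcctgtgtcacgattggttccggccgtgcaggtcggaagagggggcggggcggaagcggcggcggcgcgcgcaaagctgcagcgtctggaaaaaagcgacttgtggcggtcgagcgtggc
HELLS: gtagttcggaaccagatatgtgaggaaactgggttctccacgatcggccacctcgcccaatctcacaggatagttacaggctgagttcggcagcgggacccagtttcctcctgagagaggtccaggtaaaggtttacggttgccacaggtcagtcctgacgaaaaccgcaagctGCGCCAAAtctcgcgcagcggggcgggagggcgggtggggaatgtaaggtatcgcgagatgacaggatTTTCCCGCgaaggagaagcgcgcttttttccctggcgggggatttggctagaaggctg
The MCM6 stretches begin 152 and 90 bases before its start site, and those of HELLS 76 and 8 bases before.

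To see whether the 41 genes are high in the same cells, cells were ranked by 40 other replication genes that are no members (among them MCM3, MCM7, CDT1, POLD1 and TK1). For every measure per cell, each cell was first thinned at random to 15000 UMIs, which left out 851 of 23914 cells, 0.847% to 9.18% of a sample. Cells above the 75th percentile of their line by these other genes are called replication-high, and those at or under the 25th percentile replication-low. All 41 members were higher in replication-high than in replication-low cells in all 12 samples, as were 11.4% of all 17897 genes tested. The log2 ratio, averaged over samples, ran from 1.48 ± 0.22 (SD, n = 12) for CASP8AP2, which takes part in processing histone mRNA, to 5.44 ± 0.93 for RRM2, a subunit of ribonucleotide reductase, with a median of 3.23 over the members against -0.05 over all genes. All 20 genes of G2 and mitosis were also higher in all 12 samples, with a median of 3.66 (4.73 ± 1.16 for MKI67, a marker of cycling cells), so that this ranking does not separate S phase from the rest of the cycle. RRM2 was detected in a median of 87.6% of replication-high and 6.64% of replication-low cells, and CLSPN, a checkpoint mediator, in 70.1% and 3.5%. Genes that these cells should lack (PTPRC, CD3E, ALB, HBB) were detected in at most 0.229% of the cells of a sample. CD68 of the blood markers, at 3.3 to 205 CPM over the samples, was not counted per cell. Per cell, summed UMIs of members and of the other replication genes were correlated at r = 0.79 to 0.93 within samples, over 938 to 2652 cells that share depth and library.

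Counts summed over the cells of each sample were then compared between cetuximab and PBS. The members together were at lower mean levels with cetuximab in each line. Their summed level was 2226 and 2641 CPM in the SCC1 PBS samples and 1147 and 1879 CPM with cetuximab. In SCC6 it was 1532 and 2074 against 1123 and 1824 CPM, and in SCC25 1218 and 1657 against 1203 and 1169 CPM. The groups did not overlap in SCC1, where the mean was 37.8% lower, nor in SCC25, where it was 17.5% lower, whereas in SCC6 they overlapped, with a mean lower by 18.3%. In sums over a sample, fewer cells in S phase and less RNA per cell cannot be told apart, and values per cell are given after those of the genes.

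The labels do not say whether equal replicate numbers mark a shared culture or day. Samples of equal number in a line deviated together in these counts and were taken as pairs for that reason, here and in the replicate block. For some members the shift ran the same way in every line and treatment. In replication-high cells replicate 2 was above replicate 1 in every group for RRM1, TIPIN and RAD51AP1, and below it for HELLS and ATAD2. What the replicate number marks was not tested. In SCC1 all 41 members were lower with cetuximab in both pairs, with a median log2 ratio of -0.98 and -0.51. In SCC6, 35 and 31 of 41 were lower, with medians of -0.38 and -0.17. In SCC25, 29 and 40 were lower, with medians of -0.13 and -0.50. Over all genes tested the median was between -0.01 and 0.00 in each pair, and 46% to 51.1% of genes were lower. In all 6 pairs 20 of the 41 members (48.8%) were lower, as were 10.6% of all genes. They include MCM2, MCM4, MCM5, CDC45 and GINS2 of the helicase, PRIM1, POLA1 and POLD3 of the polymerases, TYMS and RRM1 of nucleotide supply and E2F8. The map of the 41 members over the 6 pairs shows this as a column of deep blue for SCC1 replicate 1 and paler columns for the others.

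**Figure D1:**
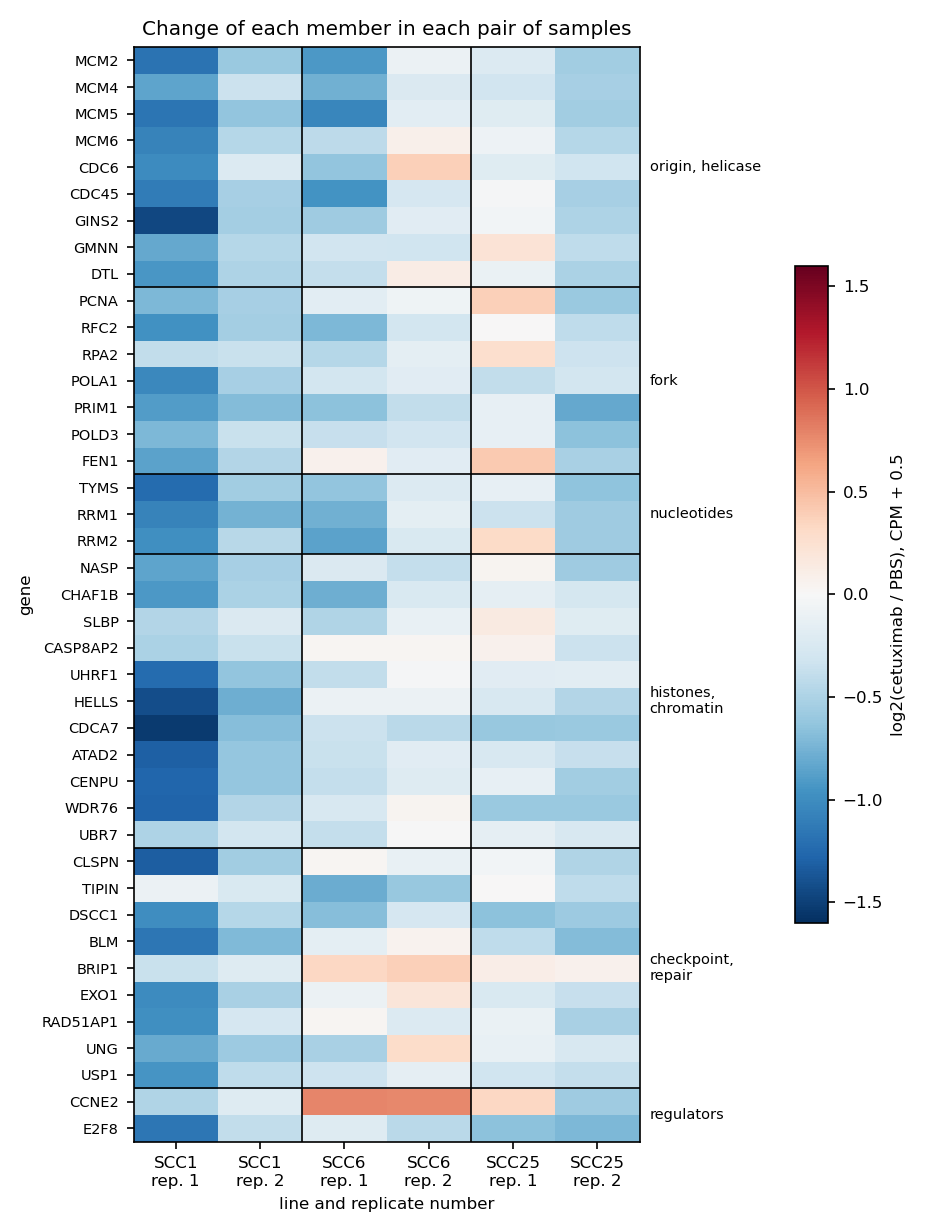
Log2 ratio of cetuximab to PBS (CPM with 0.5 added) for each of the 41 members (rows, by role) in each pair of samples of equal replicate number (columns); blue is lower with cetuximab. Both SCC1 columns are blue for all 41 members, while CCNE2 is red in both SCC6 columns.

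Over all genes, edgeR's quasi-likelihood test with 1 mean per group called no member in any single line at a Benjamini-Hochberg adjusted p under 0.05, and DESeq2 called none either. In SCC1 all 41 fitted changes were below 0, with a median of -0.70 on the log2 scale against 0.00 over all genes, and 17 of 41 (41.5%) were lower at an unadjusted p under 0.05, as were 3.67% of all genes. At the adjusted threshold 0% of genes were called lower in SCC1 and 0% in SCC25, against 1.3% in SCC6. In SCC25, 40 of 41 were below 0 (median -0.29), and 3 (WDR76, BLM and E2F8) were lower at the unadjusted p, beside 2.07% of all genes. In SCC6, 37 of 41 were below 0 (median -0.28), and no member was lower at the unadjusted p although 8.64% of genes were; the 1 member at that p, CCNE2, was higher.

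With the replicate number as a block, 17 members were called lower in SCC1 (41.5%, against 1.99% of all genes), 1 in SCC6 (TIPIN, against 10.1%) and none in SCC25 (against 0.207%), and CCNE2 was called higher in SCC6, beside 9.94% of all genes. The 17 in SCC1 were led by HELLS (-1.12 ± 0.17, SE; edgeR adjusted p = 0.0153), a chromatin remodeller, CDCA7 (-1.14 ± 0.20; 0.0214), its partner, and ATAD2 (-0.97 ± 0.17; 0.0233), a bromodomain protein. The others were UHRF1, CENPU and WDR76 of chromatin, GINS2, RFC2, POLA1 and PRIM1 of the fork, TYMS and RRM1, and CLSPN, DSCC1, BLM, EXO1 and USP1. In SCC25 no member passed with the block, where 10 members (24.4%) had an unadjusted p under 0.05, as did 15.2% of all genes. On counts simulated from these samples the test without the block recovered 3% of genes changed 2-fold in SCC1, 7% in SCC6 and 2% in SCC25, so that a count of 0 in a line says little.

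In 1 fit across lines, with 1 effect of cetuximab beside the mean of each line, 1 member was called lower, E2F8, against 1.13% of all genes. Of the 41, 39 were below 0, with a median of -0.43 against 0.01 over all genes, and 15 (36.6%) were lower at an unadjusted p under 0.05, against 9.46% of all genes. With the replicate block 16 members were called lower (39.0%, against 5.55%), and DESeq2 without the block called 9 lower (22.0%, against 4.15%), of which 7 were among the 16. In the simulated counts the recovery was 59% for 2-fold changes across lines. Between lines the change was not shown to differ for any member: a test of whether lines responded unequally, the line by treatment interaction, called none (0% of all genes), with no member at an unadjusted p under 0.05 and DESeq2 also at 0. With the block it again called no member (1.29% of all genes), with 8 (19.5%) at an unadjusted p under 0.05, beside 18.4% of all genes.

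Without any model, both cetuximab samples lay below both PBS samples for 27 of 41 members in SCC1 (65.9%, against 20.4% of all genes), 14 in SCC25 (34.1%, against 15.3%) and 6 in SCC6 (14.6%, against 21.4%). In SCC6 that share was under the share of all genes, and 2 members, CCNE2 and BRIP1, lay above without overlap, against 25.5% of all genes. In every line 4 members lay below without overlap, namely MCM4, PRIM1, POLD3 and E2F8 (3.25% of all genes).

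E2F8, an atypical E2F that represses E2F targets late in S phase, was the member with the smallest p. It stood at 6.34 and 5.07 CPM in the SCC1 PBS samples against 2.57 and 3.76 with cetuximab, 5.69 and 6.51 against 4.88 and 4.71 in SCC6, and 5.53 and 4.69 against 3.31 and 2.66 in SCC25. The cetuximab samples were below the PBS samples in each line. Its log2 fold change across lines was -0.66 ± 0.15 (SE; edgeR adjusted p = 0.0363, and 0.0272 with the replicate block), and it was lower in 6 of 6 pairs. The call was lost when any 1 of 10 of the 12 samples was left out, with an adjusted p of up to 0.0833 (without SCC1 cetuximab replicate 1), and kept without SCC1 cetuximab replicate 2 or SCC6 PBS replicate 1. It was detected in 2.91% to 8.72% of thinned cells. CCNE2, the other regulator of the cell cycle among the members, went another way and is described after the other roles.

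**Figure D2:**
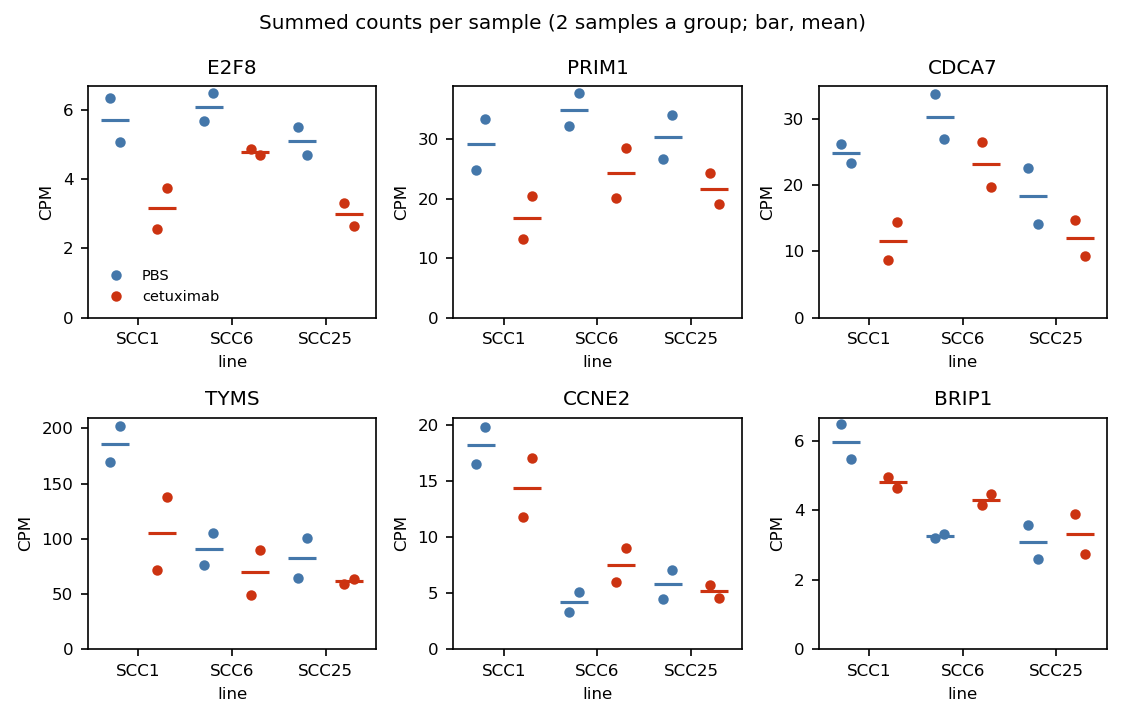
CPM of 6 members in each sample, with PBS in blue and cetuximab in red, points for the 2 samples of a group and bars for their mean. E2F8 and PRIM1 lie lower with cetuximab in each line without overlap, whereas CCNE2 and BRIP1 lie higher with cetuximab in SCC6.

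Among the 9 genes of origin licensing and the helicase (MCM2, MCM4, MCM5, MCM6, CDC6, CDC45, GINS2, GMNN and DTL), the median log2 changes were -0.72, -0.34 and -0.32 in SCC1, SCC6 and SCC25, and all 9 were below 0 in each line. None was called across lines without the block, and 4 were called lower with it (MCM2, MCM4, MCM5 and CDC45), beside 5.55% of all genes. With the block MCM2 and CDC45 were at -0.61 ± 0.15 and -0.59 ± 0.15 (edgeR adjusted p = 0.0335 and 0.0364). MCM4, a helicase subunit, stood at 67.3 and 77.5 CPM in the SCC1 PBS samples against 37.1 and 60.9 with cetuximab, 49.7 and 53.5 against 28.9 and 45.6 in SCC6, and 29.8 and 29.5 against 24.1 and 20.2 in SCC25. The groups were apart in each line, and the change across lines was -0.48 ± 0.15 (edgeR adjusted p = 0.0849, and 0.0197 with the block). MCM5, another subunit, had a change of -0.57 ± 0.29, with PBS samples that differed in SCC1 (64 and 102 CPM), and an adjusted p of 0.276 without and 0.0292 with the block. GINS2, which joins the active helicase, had the deepest change of the group in SCC1 (-0.92 ± 0.35) and -0.26 ± 0.35 in SCC25. CDC6, which loads the helicase in G1, had the value nearest to 0 of the group in SCC6, at -0.01 ± 0.41, with 29.6 and 33.8 CPM against 18.9 and 44.2. For GMNN, which blocks a second round of licensing, MCM6 and DTL, which marks the licensing factor CDT1 for destruction, the changes across lines were -0.35 ± 0.22, -0.36 ± 0.32 and -0.38 ± 0.16, none called.

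The 7 genes of the fork (PCNA, RFC2, RPA2, POLA1, PRIM1, POLD3 and FEN1) had medians of -0.63, -0.28 and -0.23 in SCC1, SCC6 and SCC25, again with all below 0. With the block 3 were called lower across lines (RFC2, PRIM1 and POLD3), beside 5.55% of all genes, and none without. RFC2 was at -0.49 ± 0.12 with the block (edgeR adjusted p = 0.0379). PRIM1, the catalytic subunit of primase, stood at 24.8 and 33.4 CPM in the SCC1 PBS samples against 13.2 and 20.4 with cetuximab, 32.1 and 37.7 against 20.1 and 28.4 in SCC6, and 26.6 and 34 against 24.3 and 19 in SCC25. The cetuximab samples lay below without overlap in each line, and the change across lines was -0.60 ± 0.15 (edgeR adjusted p = 0.053, and 0.0156 with the block); without SCC25 cetuximab replicate 1 it passed without the block. POLD3, an accessory subunit of polymerase delta, stood at 22.2 and 20.3 CPM in the SCC1 PBS samples against 13.3 and 15.8 with cetuximab, 20 and 16.7 against 15.4 and 13.4 in SCC6, and 7.62 and 7.99 against 6.94 and 4.9 in SCC25. Its groups did not overlap either, and the change was -0.43 ± 0.12 (edgeR adjusted p = 0.0668, and 0.0274 with the block). By contrast PCNA, the clamp, had 113 and 245 CPM in the SCC25 PBS samples and 147 and 162 with cetuximab. There its groups overlapped, and across lines its log2 change was -0.31 ± 0.26 (edgeR adjusted p = 0.557). FEN1, which trims Okazaki fragments, and RPA2, which coats single strands, were at -0.28 ± 0.29 and -0.25 ± 0.21, not called.

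For the 3 genes of nucleotide supply the medians were -0.82, -0.38 and -0.42. TYMS, thymidylate synthase, was at 169 and 202 CPM in the SCC1 PBS samples against 72.1 and 138 with cetuximab, 75.8 and 105 against 48.9 and 90.2 in SCC6, and 64.4 and 100.4 against 58.9 and 63.9 in SCC25. Its groups were apart in SCC1 and SCC25 and overlapped in SCC6, it was lower in 6 of 6 pairs, and its change across lines was -0.54 ± 0.20 (edgeR adjusted p = 0.153, and 0.0332 with the block). RRM1, the large subunit of ribonucleotide reductase, differed between the replicates, at 36.9 and 77.8 CPM in SCC1 PBS and 55.2 and 99.3 in SCC6 PBS. In replication-high cells its replicate 2 was the higher in every group of the 3 lines. The change of RRM1 across lines, -0.57 ± 0.35, had an edgeR adjusted p of 0.38 without and 0.0188 with the block. RRM2, the small subunit, was at -0.44 ± 0.26 and was not called in either fit.

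The 11 genes of histones and chromatin (NASP, CHAF1B, SLBP, CASP8AP2, UHRF1, HELLS, CDCA7, ATAD2, CENPU, WDR76 and UBR7) had medians of -0.88, -0.28 and -0.28. Across lines 4 were called lower with the block (NASP, CHAF1B, CDCA7 and CENPU), beside 5.55% of all genes, and none without. With the block CHAF1B and CENPU were at -0.51 ± 0.13 and -0.53 ± 0.14 (edgeR adjusted p = 0.0394 and 0.0461). CDCA7, whose promoter window is printed above, stood at 26.2 and 23.3 CPM in the SCC1 PBS samples against 8.72 and 14.4 with cetuximab, 33.7 and 26.9 against 26.4 and 19.7 in SCC6, and 22.5 and 14.2 against 14.7 and 9.25 in SCC25. In SCC1 and SCC6 its groups were apart, and in SCC25 the higher cetuximab sample passed the lower PBS sample. The change across lines was -0.70 ± 0.20 (edgeR adjusted p = 0.0687, and 0.0235 with the block). NASP, a histone chaperone, stood at 163 and 189 CPM in the SCC1 PBS samples against 90.9 and 130.3 with cetuximab, 171 and 246 against 145 and 188 in SCC6, and 107 and 146 against 111 and 98.2 in SCC25. Its groups were apart in SCC1 and overlapped in SCC6 and SCC25, and the change was -0.42 ± 0.15 (edgeR adjusted p = 0.13, and 0.0458 with the block). WDR76, a WD-repeat protein, was at 19.3 and 16.9 CPM in the SCC1 PBS samples against 7.64 and 12 with cetuximab, 13.8 and 11.9 against 11.5 and 12.3 in SCC6, and 15.2 and 12.7 against 9.91 and 8.29 in SCC25. Its groups were apart in SCC1 and SCC25 and overlapped in SCC6, and across lines it was at -0.54 ± 0.16 (edgeR adjusted p = 0.0798, and 0.0568 with the block). HELLS had the deepest change of the 41 members in SCC1 (-1.13 ± 0.44) beside -0.09 ± 0.44 in SCC6 and -0.32 ± 0.44 in SCC25. SLBP and CASP8AP2, which act on histone mRNA, were among those nearest to 0, at -0.22 ± 0.12 and -0.18 ± 0.11, and UHRF1, ATAD2 and UBR7 lay at -0.42 ± 0.20, -0.53 ± 0.27 and -0.27 ± 0.14.

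Of the 9 genes of checkpoint, cohesion and repair (CLSPN, TIPIN, DSCC1, BLM, BRIP1, EXO1, RAD51AP1, UNG and USP1), the medians were -0.68, -0.09 and -0.35. Across lines 2 were called lower with the block (DSCC1 and USP1), beside 5.55% of all genes. DSCC1, part of an alternative clamp loader that serves cohesion, was at 23.4 and 28.4 CPM in the SCC1 PBS samples against 11.5 and 20.5 with cetuximab, 24.9 and 30.7 against 15.4 and 25.5 in SCC6, and 16.8 and 19.4 against 10.5 and 12.7 in SCC25. The groups were apart in SCC1 and SCC25, and in SCC6 they overlapped narrowly. Its change of -0.59 ± 0.17 had an edgeR adjusted p of 0.073, and 0.012 with the block. USP1, which removes ubiquitin from PCNA, stood at 146 and 124 CPM in the SCC1 PBS samples against 75.6 and 92.9 with cetuximab, 85.8 and 77.1 against 67.9 and 69.7 in SCC6, and 49.7 and 38 against 39.8 and 29 in SCC25. The cetuximab samples lay below without overlap in SCC1 and SCC6, and the change across lines was -0.42 ± 0.13 (edgeR adjusted p = 0.0873, and 0.0358 with the block). BLM, a helicase of recombination, was at 6.92 and 7.18 CPM in the SCC1 PBS samples against 2.82 and 4.22 with cetuximab, 6.32 and 7.08 against 5.63 and 7.4 in SCC6, and 3.55 and 3.16 against 2.55 and 1.76 in SCC25. In SCC6 its groups overlapped, and in the other lines they did not. The change was -0.56 ± 0.19 (edgeR adjusted p = 0.114, and 0.0669 with the block). EXO1, RAD51AP1, UNG, which excises uracil, and CLSPN lay between -0.39 and -0.32, none called across lines.

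A few members departed from the rest and were singled out after their values were seen. CCNE2, cyclin E2, which drives entry into S phase with CDK2, stood at 16.6 and 19.9 CPM in the SCC1 PBS samples against 11.8 and 17.1 with cetuximab, 3.29 and 5.07 against 6 and 9.03 in SCC6, and 4.47 and 7.09 against 5.75 and 4.6 in SCC25. It was higher with cetuximab in SCC6 and lower in SCC1, with groups that did not overlap in SCC6 and overlapped in the others. Its change in SCC6 was 0.84 ± 0.33 (edgeR adjusted p = 0.192, and 0.0313 with the block), against -0.34 ± 0.33 in SCC1, and the interaction had an adjusted p of 0.704 (0.151 with the block). BRIP1, a helicase that works with BRCA1, was at 6.48 and 5.47 CPM in the SCC1 PBS samples against 4.96 and 4.66 with cetuximab, 3.2 and 3.32 against 4.15 and 4.48 in SCC6, and 3.57 and 2.58 against 3.89 and 2.75 in SCC25. It was higher without overlap in SCC6 and lower without overlap in SCC1, by 0.40 ± 0.25 and -0.31 ± 0.25, neither called, with an adjusted p of the interaction of 0.883. TIPIN, the partner of TIMELESS at the fork, was at 8.2 and 16 CPM in the SCC1 PBS samples against 7.63 and 13.4 with cetuximab, 7.12 and 20.1 against 3.89 and 13 in SCC6, and 10.6 and 26.6 against 10.7 and 19.9 in SCC25. Its groups overlapped in each line, and in SCC6 it fell by 0.75 on the log2 scale with the block (SE 0.15, edgeR adjusted p = 0.0138) and had an adjusted p of 0.63 without it.

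The 40 other replication genes were also lower for the most part. Their medians were -0.70, -0.27 and -0.35 in SCC1, SCC6 and SCC25 and -0.41 across lines, beside -0.43 for the members. None was called across lines without the block, where 21 had an unadjusted p under 0.05, as did 21.0% of all genes in either direction. DESeq2 called 9 and edgeR with the block called 20, those of edgeR all lower. Of all genes, DESeq2 called 4.15% lower and edgeR with the block 5.55%. The 5 with the smallest p were CDT1, which loads the helicase (-0.68 ± 0.18), TIMELESS (-0.45 ± 0.12), DBF4, which activates the origin kinase CDC7 (-0.70 ± 0.19), POLD2, a polymerase delta subunit (-0.44 ± 0.12), and DUT, which keeps uracil out of DNA (-0.38 ± 0.11), with adjusted p of 0.053 to 0.0783. For 20 genes of G2 and mitosis the median across lines was -0.69. Of these, 3 were called lower without the block (1.13% of all genes were) and 17 with it (5.55%). The difference between these lists and the members was not tested.

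Per cell, the middle of the distribution was lower with cetuximab in each pair, and its upper end in 3 of 6. In SCC1 the median cell held 31 and 33 member UMIs of 15000 with PBS and 8 and 15 with cetuximab. The medians were 16 and 24 against 10 and 19 in SCC6 and 15 and 12 against 11 and 7 in SCC25, so that each was lower in its own pair. At the 90th percentile the values were 72 and 77 against 54.3 and 74 in SCC1, 36 and 50 against 40 and 59 in SCC6 and 33 and 49 against 37.1 and 39 in SCC25, with overlapping groups in each line. The upper end was lower in both SCC1 pairs and SCC25 replicate 2 and higher in the other pairs. The variance of member UMIs divided by their mean was higher with cetuximab in 6 of 6 pairs, for example 9.02 and 9.81 against 15.3 and 17.6 in SCC6. No p is given for sums over the members.

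**Figure D3:**
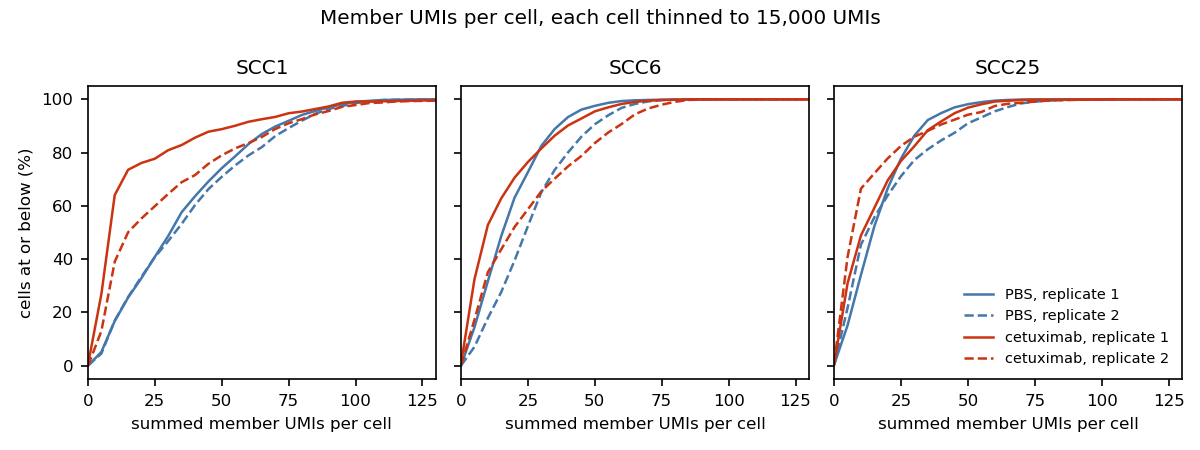
Cumulative share of cells (percent) by summed member UMIs, in steps of 5, after thinning to 15000 UMIs a cell, with PBS in blue, cetuximab in red, replicate 1 solid and replicate 2 dashed. At 10 UMIs each red line is above the blue line of its replicate, and the lines meet or cross toward the right.

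Cells were called S-high where the summed member UMIs passed the 75th percentile of the line. This is a range of a score and not a cell type, and 1882 of 23063 cells lay within 10% of the cut. In SCC1 the S-high share came to 31.4% ± 2.01 with PBS and 17.8% ± 8.48 with cetuximab (SD, n = 2), with 11.8% and 23.8% in the cetuximab samples and no overlap. Over the SCC25 samples it came to 27.3% ± 4.1 with PBS and 21.3% ± 4.32 with cetuximab, and the samples nearest to each other were 24.4% (exact binomial 95% interval 22.6% to 26.3%) and 24.4% (22.5% to 26.4%), within counting error, which is all that these intervals cover. For SCC6 the figures were 22.9% ± 11.7 with PBS and 24.2% ± 11.5 with cetuximab, with pairs that differed by 1.53 and 1.22 points, both small beside the spread within a group. In SCC25 the pairs differed by -0.03 and -11.9 points, so that the difference came from replicate 2. With the cut at the 50th percentile the share was lower in all 6 pairs, with mean differences of -32.1 points in SCC1, -12.9 in SCC6 and -16.7 in SCC25. At the 90th percentile the differences were -2.84, 5.01 and -1.44 points with overlapping groups, and in SCC6 both pairs were higher.

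Cells were also placed by the other replication genes, which hold no member, into 4 bands split at the 25th, 50th and 75th percentiles of their line. The lowest band held 11.4% and 11.6% of cells in SCC1 PBS samples and 54.1% and 28.4% with cetuximab. In SCC6 it held 22.4% and 13.5% against 42% and 25.4%, and in SCC25 9.96% and 25.2% against 27.9% and 43.3%. All 6 cetuximab samples were above the PBS samples of their line. In the highest band the share went from 27.3% and 35.6% to 10.1% and 22.9% in SCC1, without overlap, whereas in SCC6 it was 16.1% and 31.9% against 15.2% and 30.7%. In SCC25 it was 24.1% and 29.4% against 24% and 18%, nearly level in replicate 1 and lower in replicate 2. The mean member UMIs of a cell in that band were 64.1 and 63.9 against 77.2 and 69.6 in SCC1, 37.3 and 41.4 against 42.9 and 50.4 in SCC6 and 30.4 and 41.9 against 35.1 and 42.5 in SCC25, higher with cetuximab in 6 of 6 pairs. In the lowest band they were 7.53 and 7.54 against 6.52 and 7.35 in SCC1. There they were 6.23 and 6.68 against 4.97 and 6.03 in SCC6 and 4.13 and 5.67 against 4.14 and 4.64 in SCC25. Each pair of that band but SCC25 replicate 1 was thus lower with cetuximab. The second band was lower in each pair, for example 16.4 and 15.3 against 11.2 and 12 in SCC1. The third band was higher in each pair, for example 35.8 and 33.9 against 39.3 and 38.3 in SCC1. Depth differed between samples, and without thinning the S-high difference was -13.3 points in SCC1, 1.44 in SCC6 and -5.89 in SCC25.

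**Figure D4:**
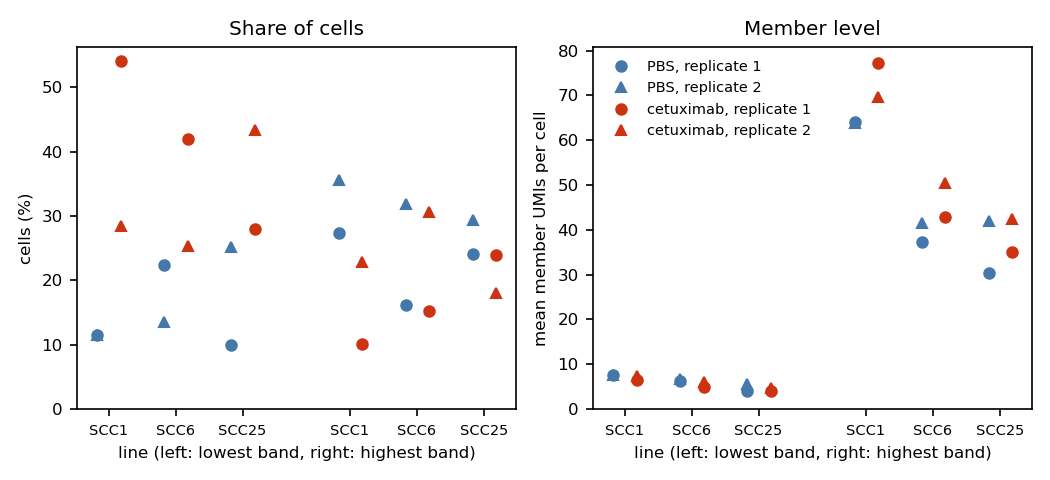
Share of cells (left panel, percent) and mean member UMIs per cell (right panel, of 15000) in the lowest and the highest band of cells of a line by the other replication genes, 1 point a sample. With cetuximab (red) the lowest band holds more cells in each line, and in the highest band the member level is not below that of PBS (blue) in any pair.

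The difference in mean member UMIs per cell between the samples of a pair was split into a part from the shares of cells in the 4 bands and a part from the member level within them. In SCC1 the differences were -17.11 and -8.56 UMIs, of which the shares gave -18.80 and -10.49 and the levels 1.69 and 1.94. In SCC6 the differences of -2.42 and -0.92 held -2.90 and -3.07 from shares and 0.49 and 2.15 from levels. In SCC25 they were -1.24 and -5.90, with -2.27 and -5.39 from shares and 1.03 and -0.51 from levels. The part from shares was below 0 in 6 of 6 pairs and the part from levels above 0 in 5 of 6. The bands are set by genes that vary with the members, so that this split is a description.

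Counts were also summed over replication-high cells alone, 95 to 777 cells a sample, and fitted across lines. There their summed level was 3773 and 4042 CPM with PBS against 4149.8 and 4051 CPM with cetuximab in SCC1, 2735 and 3019 against 2789 and 3313 in SCC6 and 2063 and 3017 against 2473 and 2914 in SCC25. The cetuximab samples lay above in SCC1, and the groups overlapped in SCC6 and SCC25. No member was called by edgeR (0.646% of 15331 genes were, in either direction), 2 (4.88%) had an unadjusted p under 0.05, under the 13.6% of all genes that did, and DESeq2 called 1 (2.44%, against 3.47%). The median change was 0.09 against -0.0029 over all genes, with 12 of 41 below 0, and it ran from -0.18 ± 0.20 for POLA1 to 0.69 ± 0.17 for CCNE2. E2F8, PRIM1, CDCA7 and MCM4 were at -0.02 ± 0.15, -0.04 ± 0.11, -0.05 ± 0.16 and 0.01 ± 0.10. An adjusted p above 0.05 does not show that levels were equal, and the standard errors of the members here were 0.0919 to 0.357 on the log2 scale. These cells were also picked in both treatments by 1 cut on genes that vary with the members. That choice limits in advance how far the member level can differ, so that few calls here say little.

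The 2 members at that p, CCNE2 and BRIP1, are no more than the share of all genes would give, and both had values above 0. CCNE2 stood at 34.6 and 35.7 CPM in replication-high cells of the SCC1 PBS samples and 66.5 and 44.6 with cetuximab, 8.11 and 8.67 against 19.3 and 19.8 in SCC6 and 10.5 and 15.4 against 15 and 15.1 in SCC25. The groups were apart in SCC1 and SCC6 and overlapped in SCC25. Fitted by line, a fit added after its value across lines was seen, CCNE2 changed by 1.22 ± 0.24 in SCC6 (edgeR adjusted p = 0.0237, and 0.0029 with the block), 1 of 41 members called higher where 2.34% of genes were. With the block BRIP1 was also called higher there (0.69, adjusted p = 0.0209; 9.59% of genes were) and TIPIN lower (-0.69, adjusted p = 0.0188; 9.75%). Without any 1 of the 4 SCC6 samples the adjusted p of CCNE2 there was above 0.05, at most 0.175. In SCC1 the change was 0.66 ± 0.24 (adjusted p = 0.859, with 0.00652% of genes called higher) and in SCC25 0.21 ± 0.24 (adjusted p = 1, with 0% called higher), and the difference between lines was not tested within these cells. BRIP1 was at 0.44 ± 0.17 across lines, with an adjusted p of 0.25 that did not pass.

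**Figure D5:**
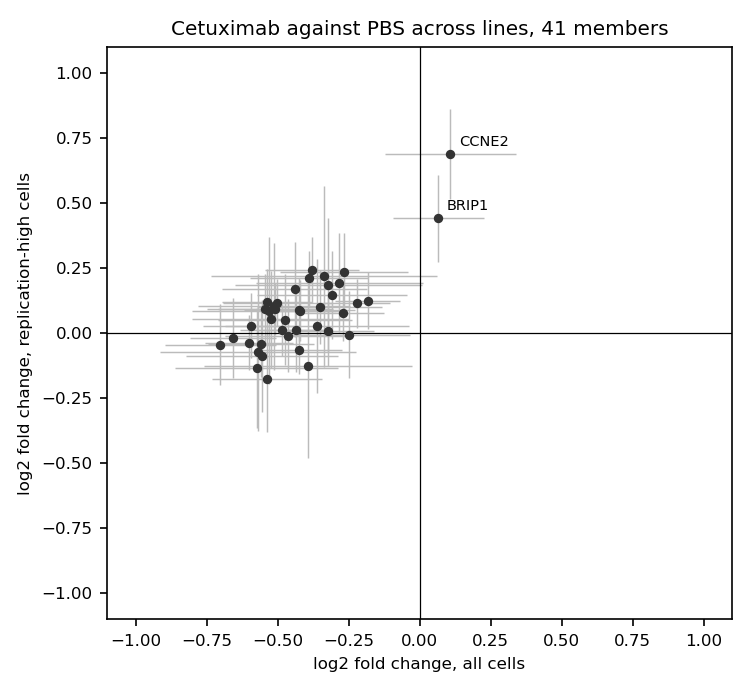
Log2 fold change of cetuximab against PBS across lines for each of the 41 members, over all cells (horizontal axis) and over replication-high cells only (vertical axis), with standard errors as grey bars. Most points lie left of 0 and near 0 on the vertical axis, and CCNE2 lies at 0.11 and 0.69.

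Untreated cells of the 3 lines were compared last, in contrasts that share the PBS samples of a line. SCC1 had the highest summed member level, 2226 and 2641 CPM, apart from 1532 and 2074 CPM in SCC6 and 1218 and 1657 CPM in SCC25, which overlapped. Between SCC1 and SCC6 9 of 41 members were called (22.0%, against 40.2% of all genes), all higher in SCC1. Of 15 members called between SCC1 and SCC25 (36.6%, against 40.8%), all were higher in SCC1. Between SCC6 and SCC25 7 were called (17.1%, against 40.9%), with MCM4, POLD3, UHRF1, BLM and USP1 higher in SCC6 and RPA2 and UBR7 higher in SCC25. These shares were under those of all genes in each contrast. CASP8AP2, with a mean of 42.7 CPM in SCC1, 13.3 in SCC6 and 17.4 in SCC25, and CCNE2, with 18.2, 4.18 and 5.78, differed most between SCC1 and SCC6, by log2 1.68 ± 0.20 and 2.12 ± 0.34 (edgeR adjusted p = 0.000103 and 0.000786). Between SCC1 and SCC6 the count was 3 without SCC6 PBS replicate 1 and 5 without SCC1 PBS replicate 2. Between SCC1 and SCC25 it was 9 and 7 without SCC1 PBS replicate 1 or 2 and 8 and 9 without SCC25 PBS replicate 1 or 2. Between SCC6 and SCC25 it was 4 without SCC6 PBS replicate 2 and 2 without SCC25 PBS replicate 2, and without the low-count filter it was 14.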

How the data were processed

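The authors prepared 3′ single-cell libraries on the 10x Chromium system and, per the submitters' processing notes, used Cell Ranger and GRCh38 (version not given in the sources used here), with cells filtered in Monocle 3. The values deposited by the authors are raw UMI counts per gene and cell, 1 table for each line, with a table of cell names that end in the sample. No doublet caller was run here, and leaving out the 5% of cells with most UMIs was an alternative. Counts were summed per sample, filtered with filterByExpr, scaled by TMM and fitted with edgeR 4.0.16 in R 4.3.3, glmQLFit and glmQLFTest, with p adjusted by Benjamini-Hochberg over all genes tested. The SE beside an edgeR change was derived as the size of the log2 change divided by the square root of its F statistic. DESeq2 1.42.0 was an alternative. Ratios within pairs have 0.5 CPM added. Cells were thinned without replacement (Python 3.11.15, numpy 2.4.6). Deviations of samples with equal replicate number correlated at 0.54 to 0.69 within lines over all genes, so the numbers were taken to pair samples. The blocked value is given where it changes the call of a member across lines. The test was checked on simulated counts. The 41 members and all lists were chosen with earlier results of these data known. Values in every sample are given for members called between cetuximab and PBS without the block and, these being under 10, for the 10 with the smallest p across lines; 5 other replication genes are named by the same order, and TYMS, CCNE2, BRIP1 and TIPIN were added after their values were seen. Lists of other replication, G2 and mitosis, squamous, blood, fibroblast and liver genes were used; fibroblast markers summed to at most 26.9 CPM and liver markers to at most 0.0835 CPM in a sample.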

Additional observations from a re-analysis of the deposited data

Results flagged for a closer look

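For 3 members both cetuximab samples differed from their PBS pairs one way in SCC1 and the other way in another line. The share of all genes that do so was not counted, so these 3 are not read as more than other genes would give. CCNE2 had a fitted log2 change of 0.84 in SCC6 and -0.34 in SCC1, with an adjusted p of the line by treatment interaction of 0.704 (edgeR) and 0.151 with the block. BRIP1 was at 0.40 in SCC6 and 0.11 in SCC25 against -0.31 in SCC1 (interaction 0.883, and 0.24 with the block). CASP8AP2 was at 0.031 in SCC6 and -0.43 in SCC1 (interaction 0.951, and 0.375 with the block). None of these tests of the difference passed the threshold.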

How the results depend on the processing

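With the replicate block, members called rose from 0 to 17 in SCC1 and to 2 in SCC6 and from 1 to 16 across lines. Other replication genes called across lines rose from 0 to 20. SCC25, the interaction and replication-high cells across lines stayed at 0 members. Within replication-high cells of SCC6 members called rose from 1 to 3. DESeq2 gave 9 members and 9 other replication genes across lines and 1 member, CCNE2, in replication-high cells. Without the low-count filter there were 3 members and 2 other replication genes across lines and 14 members between untreated SCC6 and SCC25. Thinned cells gave 3 and 2, and leaving out the 5% of cells with most UMIs gave 2 other replication genes. The share of all genes called is not set beside these counts, so they do not say whether members differed more often than other genes. In the main fit that share was 1.13% (lower, across lines) and 40.9% (untreated SCC6 and SCC25). With 1 sample left out, members called ran from 0 to 1 across lines, from 3 to 10 (SCC1 and SCC6), 7 to 15 (SCC1 and SCC25) and 2 to 9 (SCC6 and SCC25) between untreated lines and from 0 to 1 in replication-high cells (without SCC25 PBS replicate 2), and other replication genes from 0 to 1. The S-high difference moved at the 50th percentile to -32.1 points in SCC1, -12.9 in SCC6 and -16.7 in SCC25, at the 90th to -2.84 in SCC1 and -1.44 in SCC25, and with 1 cut for all lines to -22.5 in SCC1 and -1.99 in SCC25, where the groups then overlapped and replicate 1 was at 3.81; with 1 sample left out it ran from -19.5 to -7.55 in SCC1, -6.88 to 9.64 in SCC6 (below 0 without PBS replicate 1 or cetuximab replicate 2) and -9.04 to -2.93 in SCC25 (lowest in size without cetuximab replicate 2, and -3.09 without PBS replicate 2); the SCC1 value of -7.55 is without cetuximab replicate 1. For the 10 members named by rule the change across lines stayed below 0 in 180 of 180 alternative values. These 10 were chosen by the smallest p in the same samples, so that their sign was largely set by the choice. The cause of these shifts was not tested. With 2 samples a group, a change of 2-fold in a line was seldom recovered in simulated counts.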

Other observations

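Cells high for the members overlapped in part with cells high for 20 genes of G2 and mitosis, both set at the 75th percentile of the line. Cells high for both made up 10.8 and 13.8 percent of the SCC1 PBS samples and 3.94 and 7.42 percent with cetuximab, 1.96 and 10.3 against 3.01 and 10.1 percent in SCC6 and 5.12 and 12.9 against 6.25 and 7.68 percent in SCC25. The groups were apart in SCC1 and overlapped in the other lines. Cells high for neither were 48.3 and 45.2 percent against 81.8 and 63.4 percent in SCC1, 68.9 and 41.4 against 68.2 and 54.4 in SCC6 and 49.5 and 56 against 58.3 and 73.3 in SCC25. A median cell held a UMI of 5 to 17 of the 41 members.

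How strongly a member marked replication-high cells was set beside its change with cetuximab. Over the 41 members the log2 ratio of replication-high to replication-low cells and the change across lines correlated at r = -0.19, and with the change in SCC1 at -0.37; genes of 1 set of libraries are not independent, and no p is given. CLSPN, with a ratio of 5.20, had changes of -0.88 ± 0.35 in SCC1 and -0.06 ± 0.34 in SCC6, and POLA1, with a ratio of 1.64, of -0.95 ± 0.33 and -0.28 ± 0.32.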
